A study of Mus musculus with 4 samples.

Results

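The array probes described here carry no CpG dinucleotide, that is, no C followed by G anywhere in the printed oligonucleotide. Of 520554 probes that are not controls, 500643 lay on chromosomes 1 to 19, and 264680 of these (52.9%) held no CpG. A total of 163670 CpG-free probes (61.8%) had an input signal that the scanner software marked as well above background on all 4 arrays, which was the rule for inclusion. A further 42 had a spot marked as non-uniform on some array, so 163628 probes were measured. The remaining 101010 CpG-free probes did not pass the input rule. CpG-containing probes that passed the same filters numbered 152875, and both kinds together made up the 316503 probes kept.

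Methylated DNA immunoprecipitation (MeDIP) was combined with Agilent mouse promoter arrays in leukaemic cells grown with interleukin-6, interleukin-3 and stem cell factor. Each of 4 groups had 1 array: KO cells with decitabine, WT cells with decitabine, untreated KO cells and untreated WT cells. Decitabine was given at 20 nM every 24 h for 3 days, and cells were harvested at 72 h. On every array the MeDIP DNA was labelled with Cy3 and the input DNA with Cy5, with no dye swap, and both DNAs had gone through whole genome amplification. The source names give Mll5 as the gene knocked out, whereas the genotype field of the same samples says HOXA9 KO, and the cell line field of all 4 samples reads MII5. The labels give neither how the cells were transformed nor whether the 4 samples came from separate cultures. Because every group sits on a slide of its own, the effect of slide and that of group cannot be told apart, and no difference between 2 arrays has a replicate check.

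The antibody used in MeDIP binds 5-methylcytosine in single-stranded DNA, and mammalian DNA methylation lies mostly on the cytosine of CpG. The DNA fragments pulled down are longer than an array probe, so a probe without CpG can report CpG that lie beside it on the same fragment. Decitabine is a cytidine analogue that is built into DNA during replication and traps DNA methyltransferases, and it is used in acute myeloid leukaemia. Mll5, also called Kmt2e, encodes a protein of the trithorax group, and Hoxa9 encodes a homeodomain transcription factor that is widely used to transform mouse marrow cells. No CpG-free probe of the set was named for Mll5 or lay within 2000 bp of it (mm9 chr5:22940259-23010053). Hoxa9 (mm9 chr6:52173099-52181088) had 5 such probes, of which 1 was bright on the KO decitabine array and 2 on the WT decitabine array, against 0 on both untreated arrays. Their median input signal was 437 on KO decitabine and 407 on WT decitabine, and 405 on KO untreated and 651 on WT untreated, so these probes do not check either knockout label.

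All 163628 sequences matched the mm9 genome at the position the array annotation gives, 163445 on the plus strand and 183 on the minus strand, and none was printed on the array under another name. Probe length was 45 to 60 bases with a median of 56. GC content ran from 18.3% to 73.3%, with a median of 40.7% against 46.8% in CpG-containing probes. The 500 bp centred on a CpG-free probe held a median of 5 CpG (0 to 79), against 13 around CpG-containing probes. The nearest CpG lay a median of 27 bp away and at most 1597 bp. Exons held 23376 of the probes (14.3%), introns 70094 and intergenic sequence 70158, against 30.9% of CpG-containing probes in exons. A transcript start lay within 2000 bp of 58.8% of CpG-free probes and of 73.5% of CpG-containing probes.

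The probes of lowest and highest GC content show how far CpG-free sequences differ in base composition, with G and C in capitals. Both are on the plus strand of mm9. The Traf1 probe (intergenic, chr2:34820051-34820110) is named for a signalling adaptor of tumour necrosis factor receptors, and the Elovl1 probe (intronic, chr4:118100952-118100996) for an elongase of very long fatty acids.
Traf1: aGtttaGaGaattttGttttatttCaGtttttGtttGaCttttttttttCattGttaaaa
Elovl1: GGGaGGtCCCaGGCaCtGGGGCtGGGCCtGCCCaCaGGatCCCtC

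The next 4 sequences are those with the longest uninterrupted CA or TG repeat in the set, 9 units each, and were picked for that after the data had been seen. Capitals mark the repeat, and all are on the plus strand of mm9. The Pigk probe (a subunit of the enzyme that attaches glycosylphosphatidylinositol anchors) is intergenic at chr3:152376169-152376228, the Acot11 probe (an acyl-CoA thioesterase) intronic at chr4:106471906-106471950, the Rnf34 probe (a ubiquitin ligase) intronic at chr5:123301525-123301584, and the Upk1a probe (a urothelial membrane protein) intergenic at chr7:31398420-31398475.
Pigk: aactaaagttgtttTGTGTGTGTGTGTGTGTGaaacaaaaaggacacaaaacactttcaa
Acot11: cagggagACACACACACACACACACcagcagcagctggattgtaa
Rnf34: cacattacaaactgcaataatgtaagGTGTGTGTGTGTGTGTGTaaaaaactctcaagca
Upk1a: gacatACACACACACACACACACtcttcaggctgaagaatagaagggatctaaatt

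Probes that stood at the upper end of the range of MeDIP over input, or that differed most between 2 arrays, gave the next 6 sequences. Capitals mark the last 4 bases where these are GAGC, and any run of at least 8 identical bases. All are on the plus strand of mm9: Olfr1288 (intergenic, chr2:111315455-111315514), Serpinb5 (intergenic, chr1:108756287-108756346) and Scg2 (intergenic, chr1:79440618-79440677) among the highest ratios, and Nsun7 (intergenic, chr5:66650270-66650314), Wfdc5 (intronic, chr2:164011030-164011088) and Phkb (intronic, chr8:88367124-88367183) among the largest differences with decitabine.
Olfr1288: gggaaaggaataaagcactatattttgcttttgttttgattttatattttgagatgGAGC
Serpinb5: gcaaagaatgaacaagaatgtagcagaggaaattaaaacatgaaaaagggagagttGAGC
Scg2: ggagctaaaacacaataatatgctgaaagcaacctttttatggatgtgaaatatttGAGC
Nsun7: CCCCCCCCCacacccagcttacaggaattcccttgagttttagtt
Wfdc5: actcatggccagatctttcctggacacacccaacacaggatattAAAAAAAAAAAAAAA
Phkb: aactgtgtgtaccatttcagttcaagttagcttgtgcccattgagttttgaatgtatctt

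Most CpG-free probes had little or no measurable MeDIP signal. A probe is called bright here where the software marked its MeDIP signal as well above background. Bright probes numbered 23400 of 163628 (14.3%) on the KO decitabine array and 21061 (12.9%) on the WT decitabine array, against 6164 (3.77%) on the KO untreated and 6675 (4.08%) on the WT untreated array. Both decitabine arrays thus had a higher share than either untreated array, with 1 array a group and no test. Of 2445 negative control spots, 18 (0.736%) and 14 (0.573%) were bright on the KO and WT decitabine arrays, and 1 (0.0409%) and 0 on the KO and WT untreated arrays, where a count of 0 allows a share of up to 0.123% (3 of 2445 spots, counting error only). Over all spots of an array, 10.7% and 9.34% were bright on the KO and WT decitabine arrays, against 2.69% and 2.73% on the KO and WT untreated arrays, so the difference between treated and untreated arrays was shared by the arrays as a whole.

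CpG-containing probes were bright at 18.1% and 15.8% on the KO and WT decitabine arrays and at 4.46% and 4.11% on the KO and WT untreated arrays. The share of CpG-free probes was lower on all 4 arrays, by 3.77, 2.89, 0.69 and 0.03 percentage points, a mean difference of -1.84 ± 1.77 points (SD, n = 4 arrays). An exact two-sided sign-flip permutation test over the 4 arrays gave p = 0.125, the smallest value that 4 arrays allow, and 0.143 after Benjamini-Hochberg adjustment over the 8 such tests of this report. The 4 arrays are 4 conditions and not replicates, so this p speaks only of the sign on these arrays. Leaving out 1 array at a time gave means between -2.45 and -1.20 points, the last without the KO decitabine array. CpG-containing probes were also weighted to the CpG-free ones by class of GC content, with edges at 35, 40, 45, 50 and 55%. The mean difference was then 0.13 ± 0.64 points and the sign differed between arrays. It was -0.81 on KO decitabine, and 0.57, 0.35 and 0.44 on WT decitabine, KO untreated and WT untreated.

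The measured MeDIP signal of a typical CpG-free probe lay close to background. Its median was 315 fluorescence units on both decitabine arrays, and 315 on the KO untreated and 338 on the WT untreated array, values that include surrogates the software sets where a signal is too close to background. Surrogates stood in for 36.6% and 37.4% of probes on the KO and WT decitabine arrays and for 56.8% and 56.6% on the KO and WT untreated arrays. Before surrogates were set and dyes normalized, the median MeDIP signal above background was 30.86 and 35.02 units on the KO and WT decitabine arrays. It was 30.6 and 16.4 units on the KO and WT untreated arrays. These values are on a scale that differs by array, so they are not compared between arrays. Among the 10% of CpG-free probes with the highest mean input, this median was 149 on KO decitabine and 56.3 on WT untreated. The processed medians of those probes were 1520 and 839 units. Median input signals were 510, 418, 416 and 546 units on KO decitabine, WT decitabine, KO untreated and WT untreated, against 551, 503, 483 and 651 units for CpG-containing probes. The input signal chose the probes and is given as a description.

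The log2 ratio of MeDIP over input, centred in each array on the median of all 316503 probes, had a median of 0.01, 0.12, 0.11 and 0.15 over CpG-free probes on KO decitabine, WT decitabine, KO untreated and WT untreated. CpG-containing probes had medians of -0.01, -0.15, -0.14 and -0.19 on the same arrays. CpG-free probes were thus higher by 0.22 ± 0.14 (SD, n = 4 arrays; higher on 4 of 4; exact sign-flip permutation p = 0.125, adjusted 0.143), although fewer of them were bright. After loess within arrays the mean was 0.050. With CpG-containing probes weighted by the same GC classes, CpG-free probes were lower by a mean of 0.10 on the log2 scale, on all 4 arrays. GC content was not equal within these classes, and its remaining part was not tested. Among bright probes only, the median ratio was 0.89 and 0.55 for CpG-free probes on the KO and WT decitabine arrays and 0.25 and 0.81 on the KO and WT untreated arrays. CpG-containing bright probes had medians of 0.80, 0.18, -0.16 and 0.44 in the same order of arrays. In most probes the MeDIP signal of this ratio is near background or a surrogate.

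The bright share of CpG-free probes was higher at high GC content on every array. Probe length also differed between the GC classes. Median length was 60 bases under 35% and at 35 to 40% GC, 54 at 40 to 45% and 48 at 45 to 50%. It was 45 bases at 50 to 55% and at 55% or more, and the part of length was not tested. Among 13448 probes under 35% GC, 10.2% and 8.48% were bright on the KO and WT decitabine arrays and 3.06% and 3.76% on the KO and WT untreated arrays. Among 5725 probes of 55% GC or more, 32.0% and 33.5% were bright on the KO and WT decitabine arrays and 12.2% and 9.48% on the KO and WT untreated arrays. The classes between, from 57767 probes at 35 to 40% GC to 11911 at 50 to 55%, followed the same order on all 4 arrays, except that 35 to 40% stood below the lowest class on the WT decitabine, KO untreated and WT untreated arrays.

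Between probes of 50% GC or more and probes under 40%, the bright share differed by 13.5, 17.3, 5.74 and 3.58 percentage points on KO decitabine, WT decitabine, KO untreated and WT untreated, a mean of 10.1 ± 6.47 points (higher on 4 of 4 arrays; exact sign-flip permutation p = 0.125, adjusted 0.143). With MeDIP signals marked positive and significant in place of well above background, this mean was -0.18 points. CpG-containing probes of 55% GC or more were bright at 25.5% and 23.4% on the KO and WT decitabine arrays and at 6.91% and 5.25% on the KO and WT untreated arrays. In this highest GC class the CpG-free share was therefore above that of CpG-containing probes on all 4 arrays. The class was not equal in GC content, with a median of 57.8% in CpG-free and 62.2% in CpG-containing probes. Median input of its CpG-free probes was 1118, 1319, 1029 and 1643 units on KO decitabine, WT decitabine, KO untreated and WT untreated. CpG-containing probes had 749, 960, 758 and 1203 units in that order, and the part of input was not tested. At 35 to 40% GC the CpG-free share was below that of CpG-containing probes on all 4 arrays, at 10.7%, 8.19%, 2.37% and 3.22% against 13.5%, 9.51%, 2.73% and 3.44%.

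**Figure D1:**
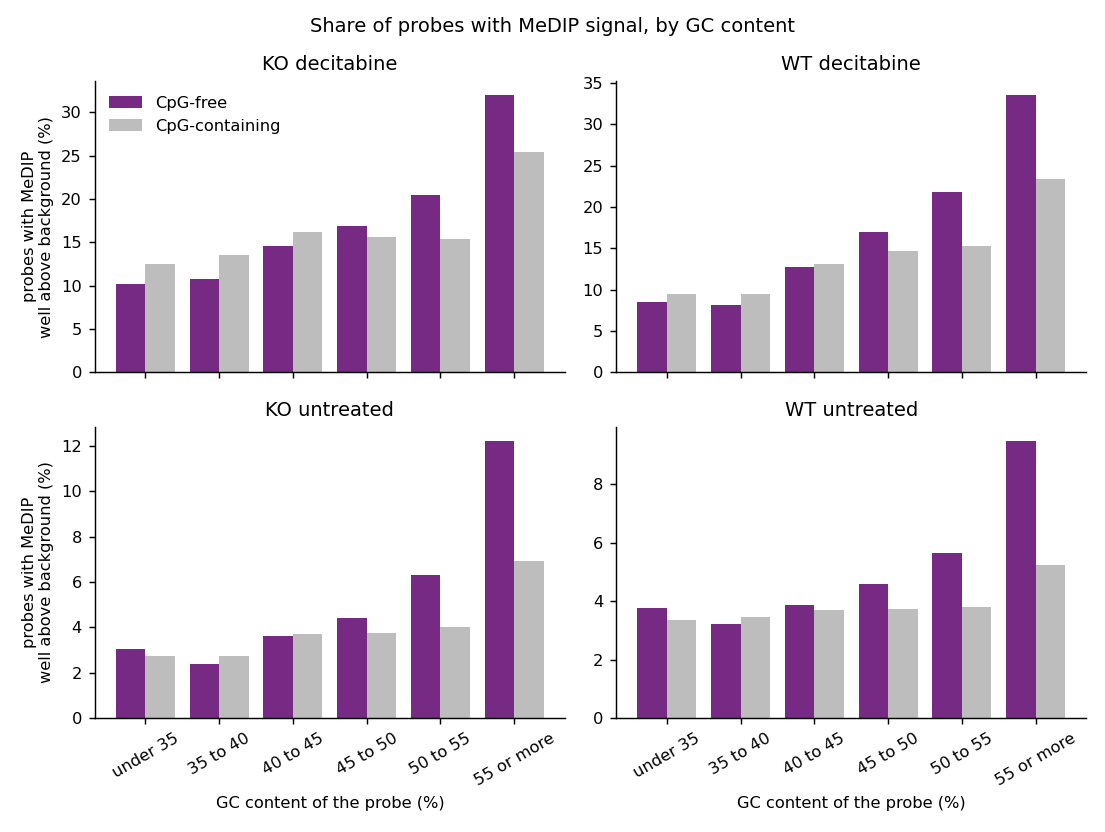
Share of CpG-free (purple) and CpG-containing (grey) probes with MeDIP well above background (y, percent, from 0, scaled per panel) by GC content of the probe (x, percent) on each of the 4 arrays. CpG-free probes climb to 32.0%, 33.5%, 12.2% and 9.48% at 55% GC or more, above the grey bars of that class in every panel. In that class CpG-free probes also had the higher median input on all 4 arrays.

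The input channel moved with GC content more than the MeDIP channel did. Median input was 413 and 283 units under 35% GC on the KO and WT decitabine arrays and 322 and 361 units on the KO and WT untreated arrays. At 55% GC or more it was 1118 and 1319 units on the KO and WT decitabine arrays and 1029 and 1643 units on the KO and WT untreated arrays. The rank correlation of GC content with input over the 163628 probes was 0.26, 0.44, 0.32 and 0.44 on KO decitabine, WT decitabine, KO untreated and WT untreated, against 0.10, 0.15, 0.03 and -0.08 for GC content with background-subtracted MeDIP signal. These correlations are across probes of 1 array, which share its scan and labelling, and are a description.

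The centred ratio ran the other way from the bright share. Its median was 0.15, 0.52, 0.44 and 0.76 under 35% GC and -0.32, -0.63, -0.94 and -1.41 at 55% GC or more, on KO decitabine, WT decitabine, KO untreated and WT untreated. Probes of 50% GC or more had a lower median ratio than probes under 40% by a mean of -0.99 ± 0.50 (SD, n = 4 arrays; lower on 4 of 4; exact sign-flip permutation p = 0.125, adjusted 0.143). The difference was smallest on the KO decitabine array (-0.39) and largest on the WT untreated array (-1.62), with -0.91 on WT decitabine and -1.03 on KO untreated. The mean was -0.27 after loess, -1.56 with no input filter and -1.58 among bright probes. The ratio divides by input, the signal that chose the probes and that climbs with GC content. On WT untreated, median input was 361 units under 35% GC and 1643 units at 55% or more. The median MeDIP signal of these classes was 343 and 331 units. The test of this ratio therefore cannot tell a difference in MeDIP from one in input.

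**Figure D2:**
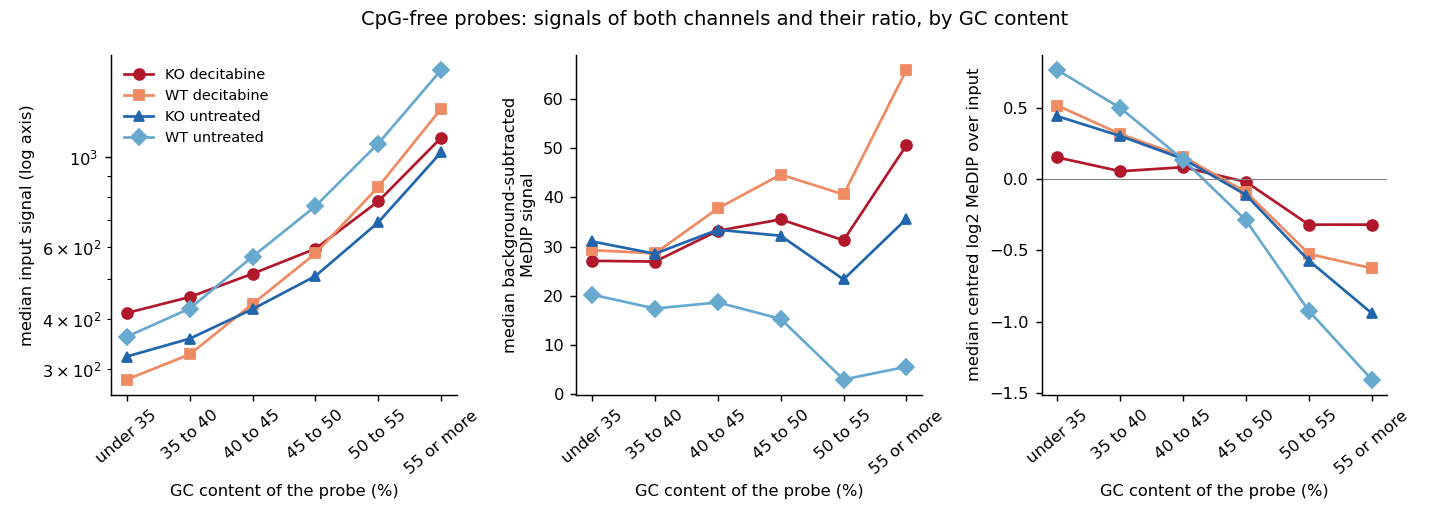
Medians over CpG-free probes of the input signal (left, log axis, fluorescence units), the background-subtracted MeDIP signal (middle, fluorescence units) and the centred log2 MeDIP over input ratio (right) by GC content (x, percent), 1 line for each of the 4 arrays. The middle panel is before dye normalization, on a scale that differs by array, so its lines are not compared in height. Input climbs with GC on all arrays, and the median ratio falls to between -0.32 and -1.41 at 55% GC or more.

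Bright MeDIP signal was concentrated in probes with a high input signal. Ranked by mean log2 input over the 4 arrays, the 10% of CpG-free probes with the lowest input had bright shares of 1.503% and 0.654% on the KO and WT decitabine arrays and 0.110% and 0.642% on the KO and WT untreated arrays. In the highest 10%, 70.6% and 73.2% were bright on the KO and WT decitabine arrays and 29.0% and 25.8% on the KO and WT untreated arrays. Just outside the input rule, 27286 CpG-free probes passed it on exactly 3 arrays, and of these 1.32% and 0.597% were bright on the KO and WT decitabine arrays and 0.187% and 0.399% on the KO and WT untreated arrays.

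At equal input the order of the GC classes turned round. In the highest 10% by input, probes of 50% GC or more were bright at 66.2% and 70.8% on the KO and WT decitabine arrays and at 24.6% and 20.1% on the KO and WT untreated arrays. Probes under 40% GC in that class were bright at 76.7% and 74.8% on the KO and WT decitabine arrays and at 39.7% and 35.6% on the KO and WT untreated arrays. Averaged over such input classes of 10% each, a comparison added after the data had been seen, the share in GC-rich probes minus that in GC-poor probes was -8.73, -5.89, -2.63 and -3.66 percentage points on KO decitabine, WT decitabine, KO untreated and WT untreated. Input signal, GC content and probe length move together across these probes, and their separate part in the bright share was not tested. Median length was 60 bases in the lowest input class and 47 in the highest. The difference between CpG-free and CpG-containing probes averaged 0.58 points over the same classes, with -0.0025, 0.86, 0.52 and 0.94 on the 4 arrays in that order.

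**Figure D3:**
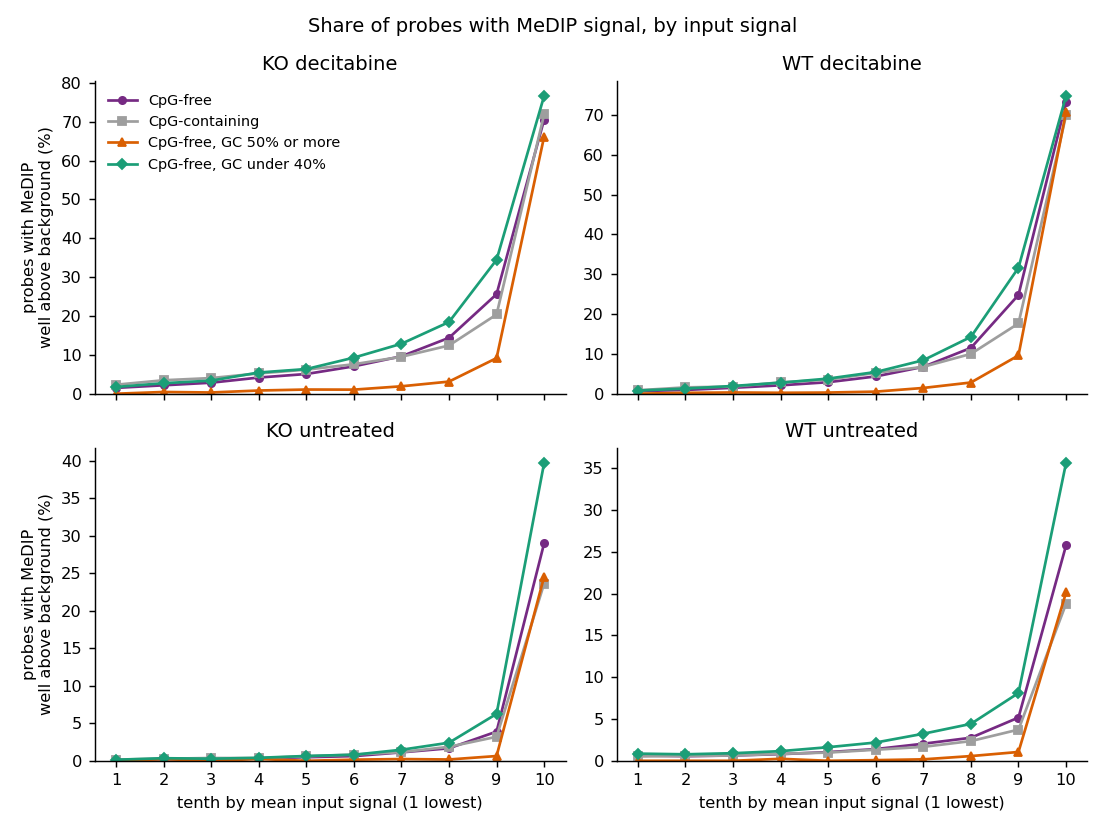
Share of probes with MeDIP well above background (y, percent, scaled per panel) by mean input signal in classes of 10% of the CpG-free probes (x, 1 lowest, 10 highest) on each of the 4 arrays, for CpG-free probes, CpG-containing probes, and CpG-free probes of 50% GC or more and under 40%. The CpG-free line reaches 70.6%, 73.2%, 29.0% and 25.8% in class 10, and the line of GC-rich probes stays below that of GC-poor probes.

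The number of CpG near a CpG-free probe also separated the set. Median probe length was 60 bases at 0 CpG in 500 bp and 49 at over 10 CpG, and median GC content 36.7% and 45.8%. The part of length was not tested. Among 6375 probes with 0 CpG in the surrounding 500 bp, 6.45% and 5.80% were bright on the KO and WT decitabine arrays and 2.13% and 2.46% on the KO and WT untreated arrays. Among 45506 probes with 6 to 10 CpG the shares were 19.7% and 17.0% on the KO and WT decitabine arrays and 4.67% and 4.96% on the KO and WT untreated arrays. Among 23887 probes with over 10 CpG they were 17.3% and 17.9% on the KO and WT decitabine arrays and 4.94% and 4.55% on the KO and WT untreated arrays.

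The bright share at over 10 CpG exceeded that at 0 CpG by 10.9, 12.1, 2.81 and 2.09 percentage points on KO decitabine, WT decitabine, KO untreated and WT untreated, a mean of 6.97 ± 5.25 points (higher on 4 of 4 arrays; exact sign-flip permutation p = 0.125, adjusted 0.143). The median ratio differed by 0.03, -0.26, -0.40 and -0.67 on the same arrays, a mean of -0.32 ± 0.30 (lower on 3 of 4; exact sign-flip permutation p = 0.25, adjusted 0.25), so the ratio did not share one sign. Without the WT untreated array this mean was -0.21, after loess -0.032, with no input filter -0.71, among bright probes -0.19, and with windows of 200 and 1000 bp -0.71 and -0.11. Probes with 1 or 2 CpG nearby allow a comparison with CpG-containing probes in equally poor surroundings. There 8.76% and 7.93% of 32358 CpG-free probes were bright on the KO and WT decitabine arrays and 2.59% and 3.16% on the KO and WT untreated arrays. Of 5803 CpG-containing probes with 1 or 2 CpG in 500 bp, the probe's own included, 8.01%, 6.69%, 2.19% and 2.81% were bright on the same arrays.

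Probes close to a CpG were bright more often than distant ones on all 4 arrays. Of 79892 probes with a CpG within 25 bp, 16.9% and 15.4% were bright on the KO and WT decitabine arrays and 4.39% and 4.52% on the KO and WT untreated arrays. Of 1270 probes whose nearest CpG lay over 400 bp away, 4.49% and 4.17% were bright on the KO and WT decitabine arrays and 1.42% and 2.20% on the KO and WT untreated arrays. Even these isolated probes had bright shares above those of the negative control spots. Their median input was 442 and 318 units on the KO and WT decitabine arrays and 346 and 402 units on the KO and WT untreated arrays, against 539, 461, 445 and 602 units for probes with a CpG within 25 bp.

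Within a narrow range of GC content the relation to nearby CpG depended on that range. At 35 to 40% GC the bright share was 4.24% and 3.42% with 0 CpG on the KO and WT decitabine arrays, and 1.27% and 1.67% on the KO and WT untreated arrays. With 6 to 10 CpG, probes of that GC class were bright at 17.9% and 12.9% on the KO and WT decitabine arrays and at 3.46% and 4.54% on the KO and WT untreated arrays. Over 10 CpG gave 14.7% and 12.4% on the KO and WT decitabine arrays, and 3.57% and 3.59% on the KO and WT untreated. At 55% GC or more the share fell from 1 or 2 CpG on, where 43.8% and 44.1% of 347 probes with 1 or 2 CpG were bright on the KO and WT decitabine arrays and 18.7% and 14.1% on the KO and WT untreated arrays. With over 10 CpG, 2635 probes of that GC class were bright at 29.6% and 31.7% on the KO and WT decitabine arrays and at 10.4% and 7.97% on the KO and WT untreated arrays. Only 32 probes of that class had 0 CpG, and they were bright at 25% and 18.75% on the KO and WT decitabine arrays and at 6.25% and 3.125% on the KO and WT untreated arrays, below probes with over 10 CpG on all 4. Median input in this GC class was also higher with 1 or 2 CpG (1454, 1806, 1360 and 2016 units on the 4 arrays) than with over 10 CpG (1078, 1303, 1026 and 1626 units), and its part was not tested. Held within input classes of 10% each, the difference between over 10 and 0 CpG was 2.46 and 3.09 points on the KO and WT decitabine arrays and -0.26 and -0.60 points on the KO and WT untreated arrays, with a mean of 1.17.

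**Figure D4:**
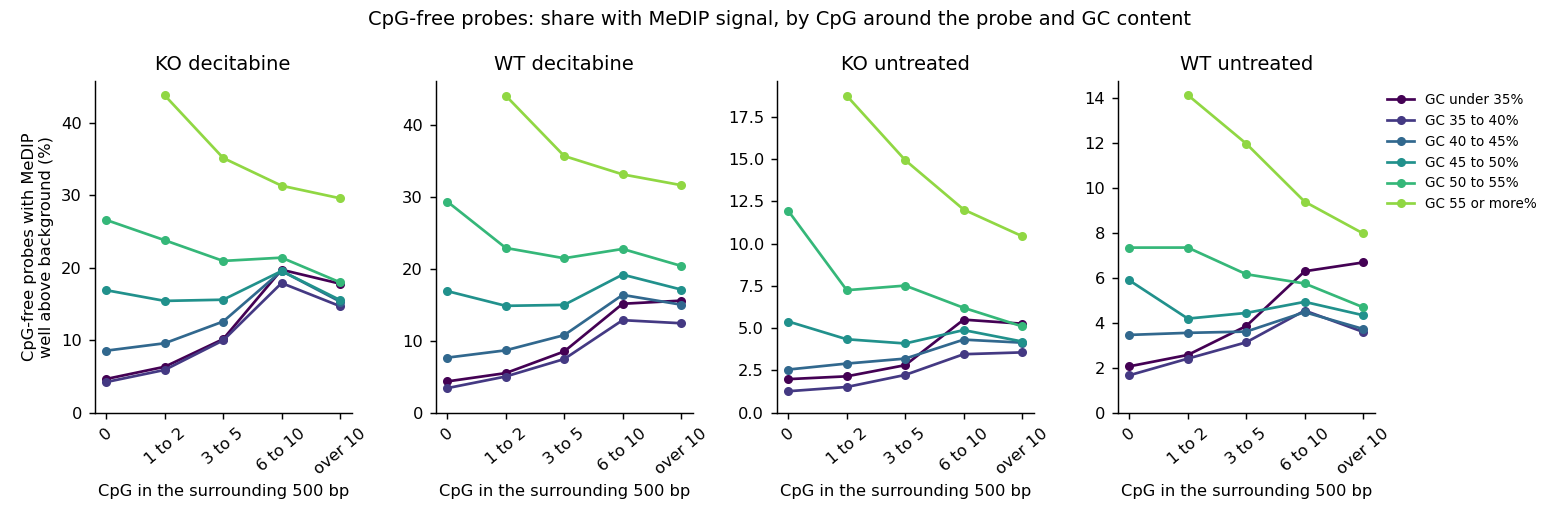
Share of CpG-free probes with MeDIP well above background (y, percent, scaled per panel) by the number of CpG in the surrounding 500 bp (x), with 1 line per GC class, on each of the 4 arrays; classes under 100 probes are not drawn. Lines of GC-poor probes climb up to 6 to 10 CpG. On KO decitabine the line of 35 to 40% GC goes from 4.24% at 0 CpG to 17.9% there, and to 14.7% over 10 CpG. The line of 55% GC or more on that array falls from 43.8% at 1 to 2 CpG to 29.6% over 10 CpG.

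Tandem CA or TG repeats, common microsatellites of the mouse genome, were bright on nearly every array. Of 158 CpG-free probes with at least 6 units in a row, 147 (93.0%) and 146 (92.4%) were bright on the KO and WT decitabine arrays and 132 (83.5%) and 128 (81.0%) on the KO and WT untreated arrays. Of the 158, 127 (80.4%) were bright on all 4. Probes with shorter repeats or none were bright at 14.2%, 12.8%, 3.69% and 4.01% on the same arrays. The mean difference was 78.8 ± 1.29 percentage points (higher on 4 of 4 arrays; exact sign-flip permutation p = 0.125, adjusted 0.143). It was 78.8 and 79.6 points on the KO and WT decitabine arrays, and 79.9 and 77.0 points on the KO and WT untreated arrays. The mean was 43.4 points for signals marked positive and significant and 31.7 points for repeats of at least 4 units.

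The share climbed with each added unit. With 4 units in a row, 1513 probes were bright at 40.1% and 41.9% on the KO and WT decitabine arrays and at 21.0% and 21.4% on the KO and WT untreated arrays. With 5 units, 269 probes were bright at 72.1% and 78.1% on the KO and WT decitabine arrays and at 50.9% and 49.8% on the KO and WT untreated arrays. Of 23 probes with 8 or 9 units, all were bright on both decitabine arrays, and 95.7% were on both untreated arrays. CpG-containing probes had high shares too. Of 49 with at least 6 units, 98.0% and 98.0% were bright on the KO and WT decitabine arrays and 95.9% and 91.8% on the KO and WT untreated arrays.

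**Figure D5:**
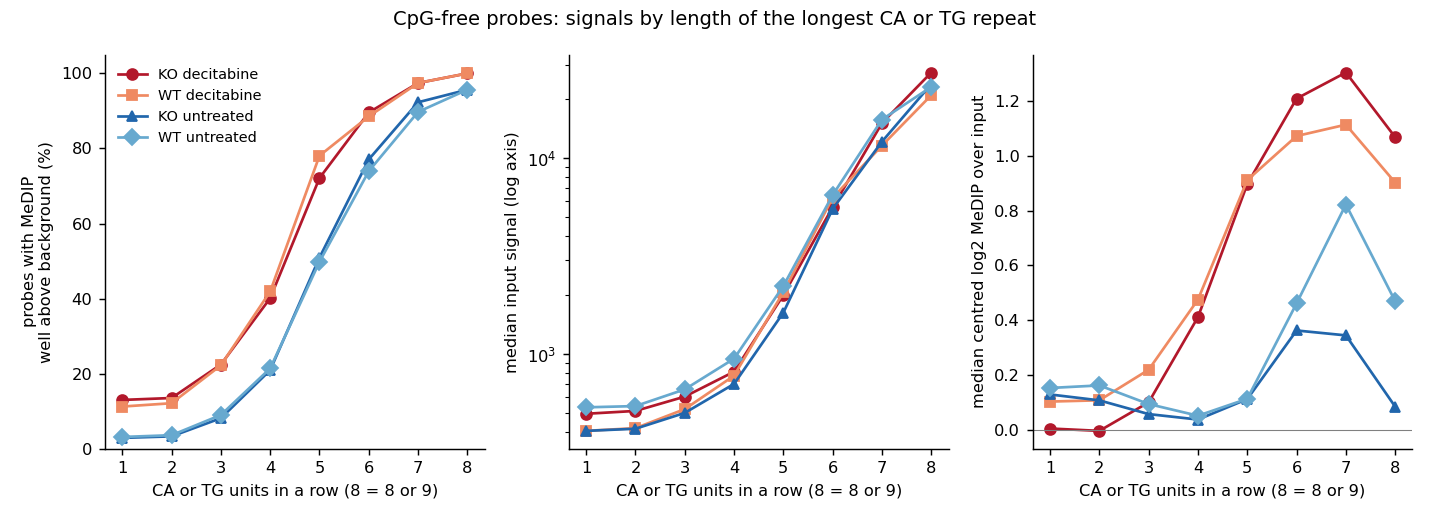
Bright share (left, percent), median input signal (middle, log axis, fluorescence units) and median centred log2 MeDIP over input (right) of CpG-free probes by the longest run of CA or TG units (x), 1 line for each of the 4 arrays. All 3 quantities are higher in probes of 6 or more units than in probes of 1 unit on the decitabine arrays, and the bright share lies above 73% from 6 units on.

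Repeat probes were bright in both channels. Their median input was 10377 and 9188 units on the KO and WT decitabine arrays and 8588 and 10298 units on the KO and WT untreated arrays, against 510, 418, 415 and 546 units for the rest. The median centred ratio was 1.20 and 1.07 on the KO and WT decitabine arrays and 0.31 and 0.52 on the KO and WT untreated arrays, above the probes without the repeat by 1.19, 0.95, 0.19 and 0.37, a mean of 0.68. This mean was 0.092 after normexp, 0.12 with no input filter, 0.25 among bright probes and 0.25 for repeats of at least 4 units, and under these settings the sign differed between arrays, while it was 1.08 after loess. The 4 probes with 9 units show the level: the Pigk probe had MeDIP signals of 40205 and 36942 units on the KO and WT decitabine arrays and 25761 and 25472 units on the KO and WT untreated arrays, with inputs of 33503 and 25949 units and of 28291 and 26300 units on the same arrays. For the Upk1a probe the centred ratios were 0.99 and 1.47 with decitabine in KO and WT cells and 0.67 and 1.21 without. Both channels were therefore far above background on every array for these probes.

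A set of 2445 CpG-free probes without the repeat, chosen after the data had been seen for a mean input within the central 50% of the repeat probes, was bright at 99.4% and 99.6% on the KO and WT decitabine arrays and at 83.2% and 66.3% on the KO and WT untreated arrays. The median input of this set was 5904, 6484, 5434 and 7320 units on KO decitabine, WT decitabine, KO untreated and WT untreated. This was below the input of the repeat probes on every array, so input was not equal. GC content and length were not equal either. Their medians were 48.9% and 45 bases in this set, against 38.3% and 60 bases in the repeat probes. The bright share of the repeat probes differed from that of this set by a mean of 0.37 points, with signs that varied. Repeat probes were bright less often on the KO and WT decitabine arrays (93.0% and 92.4%). They were bright more often on the KO and WT untreated arrays (83.5% and 81.0%). The median ratio of the probes without the repeat was 0.30, -0.02, -0.85 and -1.33 on KO decitabine, WT decitabine, KO untreated and WT untreated, below that of the repeat probes on all 4 arrays. A GA or CT repeat of the same length, in 60 probes, went with bright shares of 58.3% and 61.7% on the KO and WT decitabine arrays and 31.7% and 26.7% on the KO and WT untreated arrays, at median inputs of 1256, 1472, 1217 and 1433 units. Input signal moved with the repeat, and its part in the MeDIP signal was not tested. The parts of GC content and length in the difference of ratios were not tested either.

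Of the 163628 probes, 135665 (82.9%) were bright on none of the arrays and 4110 (2.51%) on all 4. A further 9501 (5.81%) were bright on both decitabine arrays and on neither untreated array, 5985 on the KO decitabine array alone and 3771 on the WT decitabine array alone. Only 5 were bright on both untreated arrays and on neither decitabine array, with 146 on the KO untreated and 451 on the WT untreated array alone. Over the 4110 probes bright on all arrays, the rank correlation of the centred ratios ranged from 0.68 (KO decitabine with WT untreated) to 0.93 (WT decitabine with KO untreated), as a description over probes that share their arrays.

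Probes with the highest mean ratio among those bright on all arrays combined a strong MeDIP signal with a weak input. The probe named for Olfr1288, an olfactory receptor, had MeDIP signals of 2426 and 1717 units on the KO and WT decitabine arrays and 2217 and 2921 units on the KO and WT untreated arrays. Its input was 249 and 162 units on the KO and WT decitabine arrays and 213 and 234 units on the KO and WT untreated arrays, so that its centred ratios, 3.88, 3.80, 3.60 and 4.17, lay close together. The Serpinb5 probe (a serpin of epithelial cells) had centred ratios of 2.93, 3.84, 3.78 and 4.01 in the same order, and the Scg2 probe (secretogranin, a protein of secretory granules) 3.94, 2.83, 3.20 and 4.42. The other 3 of the first 6 are named for Smndc1, a splicing factor, 9930104L06Rik and Ccdc66. Their mean ratios over the arrays were 3.77, 3.64 and 3.59. None of the 6 has a CA or TG run of over 2 units, and 4 of them end in GAGC.

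Among the probes with the lowest mean ratio of those bright on all arrays, the Snrpc probe, named for a protein of a spliceosomal ribonucleoprotein, had a very strong input of 112877 and 123554 units on the KO and WT decitabine arrays and 148661 and 131880 units on the KO and WT untreated arrays. Its MeDIP signal was 93224 and 53576 units on the KO and WT decitabine arrays, against 23921 and 8465 units on the KO and WT untreated arrays. The probe holds a long run of C, and its centred ratio was 0.32 and -0.81 with decitabine in KO and WT cells and -2.42 and -3.43 without, the order of the MeDIP signal. Probes for Fbxw14 (an F-box protein) and Eif4enif1 (a partner of the cap-binding protein) had ratios between -2.42 and -1.26 on all 4 arrays.

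The comparison of decitabine with no treatment in WT cells asks how the MeDIP ratio of CpG-free probes differed after the drug. Over all CpG-free probes the median log2 difference was -0.09, with 25051 (15.3%) at least 2-fold higher and 15286 (9.34%) at least 2-fold lower. Over all 316503 probes, the CpG-free ones included, 17.7% were at least 2-fold higher and 8.04% lower. These shares are near those of the CpG-free probes. CpG-containing probes had 20.2% higher and 6.64% lower, with GC content not held equal. Among the 5938 CpG-free probes bright on both WT arrays the median was 0.28, with 1215 (20.5%) higher and 201 (3.39%) lower, against 25.5% and 2.89% of all probes bright on both.

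In KO cells the median difference with decitabine was -0.12, with 23338 (14.3%) at least 2-fold higher and 17386 (10.6%) lower, against 17.5% and 8.9% of all probes. Among 5981 CpG-free probes bright on both KO arrays it was 0.73, with 1913 (32.0%) higher and 15 (0.251%) lower, against 40% and 0.26% of all probes bright on both. The median over all CpG-free probes and the median over bright ones thus had opposite signs in both genotypes. Each array was centred on its own median, so these differences are relative to the typical probe and say nothing about the total amount of methylated DNA. Both comparisons with decitabine have 1 array on each side.

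The settings decide the split of these calls. Of WT probes past 2-fold, 62.1% were higher with decitabine, against 41.3% after loess within arrays, 69.2% after normexp background correction, 65.1% with the log ratio deposited by the authors and 24.1% when arrays were centred on probes bright in both channels. In KO cells the split was 57.3%, against 40.2%, 28.3%, 66.4% and 6.99% under the same settings. Centring on bright probes shifts the ratios by -0.85 and -0.61 on the KO and WT decitabine arrays and by -0.10 and -0.16 on the KO and WT untreated arrays.

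The difference with decitabine followed the GC content of the CpG-free probes. In WT cells its median was -0.27 under 35% GC, with 8.69% of probes at least 2-fold higher and 15.3% lower. At 55% GC or more the median was 0.66, with 39.7% higher and 1.90% lower. In KO cells the median was -0.31 under 35% GC and 0.54 at 55% GC or more. Under 35% GC, surrogates stood in for 39.1% and 42.0% of MeDIP signals on the KO and WT decitabine arrays. On the KO and WT untreated arrays they stood in for 56.7% and 51.7%. Among probes bright on both arrays the medians were not below 0. They were 0.02 in WT and 0.57 in KO cells under 35% GC, and 1.08 and 1.09 at 55% GC or more. By surroundings, the median in WT cells was -0.31 at 0 CpG in 500 bp and 0.08 over 10 CpG, and in KO cells -0.41 and 0.04. Among probes bright on both arrays these medians were 0.10 and 0.46 in WT cells, and 0.75 and 0.83 in KO cells.

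The probes that were most different with decitabine in WT cells were bright on both WT arrays by the rule. The Arid3c probe, named for a DNA-binding protein of the ARID family, had a MeDIP signal of 18208 units with decitabine and 3290 units without, an input of 16109 units with decitabine and 40330 units without, and a log2 difference of 3.66. In the Nsun7 probe, named for a member of an RNA methyltransferase family, MeDIP was 62060 units with decitabine and 6265 units without, at inputs of 116615 and 129203 units, a log2 difference of 3.32. The Vgll2 probe (a transcription cofactor) followed with 3.26. On the other side, the Phkb probe, named for a subunit of phosphorylase kinase, had 1974 units of MeDIP with decitabine and 13014 units without, at inputs of 1202 and 1711 units, a log2 difference of -2.35. The probe for Cdc7 (a kinase of DNA replication) had a difference of -2.14. In both probes the WT untreated MeDIP signal was the highest of the 4 arrays.

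In KO cells the largest differences upward were in probes with a long run of 1 base. The Wfdc5 probe, named for a protease inhibitor family, had a MeDIP signal of 23084 units with decitabine and 3619 units without, at inputs of 5661 and 9989 units, a log2 difference of 3.87. The Fzd10 probe, named for a Wnt receptor, had 74273 units with decitabine and 16984 units without, at inputs of 14760 and 35285 units, a difference of 3.76. For Nf1, encoding the Ras regulator neurofibromin, the difference was 3.27. The largest differences in the other direction were smaller, at -1.99 for Smek2, a regulatory subunit of a protein phosphatase, -1.29 for Olfr871 and -1.28 for Mtmr4, a lipid phosphatase.

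Fewer CpG-free probes passed 2-fold between KO and WT arrays than between decitabine and untreated arrays, though not under every setting. After normexp 18501 were higher and 11794 lower in KO without treatment, more than the 7603 and 19222 with decitabine in KO cells or the 15179 and 6749 in WT cells, and after loess 14685 and 25837, more than the 14974 and 22300 with decitabine in KO cells. Without treatment the median difference, KO minus WT, was -0.03, with 13047 CpG-free probes (7.97%) at least 2-fold higher in KO and 16815 (10.3%) lower, against 8.87% and 9.35% of all probes. Among 4133 probes bright on both untreated arrays it was -0.03, with 227 (5.49%) higher and 232 (5.61%) lower, against 7.53% and 4.93% of all such probes. Of the probes past 2-fold 43.7% were higher in KO, against 36.2% after loess, 61.1% after normexp, 42.9% with the deposited log ratio and 49.7% after centring on bright probes.

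Under decitabine the median difference, KO minus WT, was -0.09, with 11885 CpG-free probes (7.26%) at least 2-fold higher and 17710 (10.8%) lower, against 9.72% and 9.95% of all probes. Among 17100 probes bright on both decitabine arrays it was 0.21, with 767 (4.49%) higher and 254 (1.49%) lower, against 9.91% and 1.41% of all such probes. Here 40.2% of the probes past 2-fold were higher in KO, against 32.7% after loess, 27.0% after normexp, 42.8% with the deposited log ratio and 18.9% after centring on bright probes. The decitabine difference in KO cells exceeded that in WT cells at least 2-fold in 21802 CpG-free probes (13.3%) and fell short of it at least 2-fold in 24464 (15.0%), against 13.3% and 13.7% of all probes. The 4 comparisons share arrays, and with 1 array a group the difference between genotypes was not tested.

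The largest differences between genotypes without treatment were in probes for Grin1, a subunit of the NMDA receptor, D1Bwg0212e and Oas3, an interferon-induced synthetase, with log2 differences of 2.13, 2.12 and 2.02. Those lowest in KO were Cdk5r2 (an activator of a neuronal kinase), Sp1 (a transcription factor of GC-rich promoters) and Thg1l (a guanylyltransferase of transfer RNA), at -2.45, -2.38 and -2.15. The Sp1 probe had a MeDIP signal of 1799 units on the KO untreated array and 12453 units on the WT untreated array, against 2415 and 2408 units on the KO and WT decitabine arrays, so the WT untreated array stood apart from the other 3. Under decitabine the probes highest in KO were those for Fzd10 (3.63), Nr0b2, an orphan nuclear receptor (2.84), and Ptplad2 (2.71). Those lowest were for Sds, a serine dehydratase (-2.38), Glcci1 (-2.07) and Sec22c, a vesicle trafficking protein (-2.04).

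The CpG-free probes were named for 16121 genes, with a median of 9 probes a gene, and 3345 genes had at least 1 probe bright on all arrays. Plec1, encoding the cytoskeletal linker plectin, had the most, 6 of 63 probes. The 7 genes with 4 such probes were Sfi1 (a centrosome protein, 8 probes in all), 1700023E05Rik (9), Calm2 (calmodulin, 10), Syt16 (a synaptotagmin, 14), Vangl2 (planar cell polarity, 14), Kcnj10 (a potassium channel, 15) and Slc35b3 (a nucleotide sugar transporter, 17). Among the Calm2 probes the mean centred ratio was 1.34 ± 0.98 and 1.09 ± 0.90 on the KO and WT decitabine arrays and 0.995 ± 0.918 and 0.71 ± 1.03 on the KO and WT untreated arrays (SD over 10 probes of 1 locus, which are not replicates).

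Gene groups, listed with earlier results of these data known, differed in GC content and in the bright share of their CpG-free probes. Probes of receptor families with CpG-poor promoters (olfactory, vomeronasal and bitter taste receptors, 7400 probes of 869 genes) had a median GC content of 36.7%, and 6.64% and 5.96% were bright on the KO and WT decitabine arrays and 1.96% and 2.27% on the KO and WT untreated arrays. In this group 492 probes (6.65%) were at least 2-fold higher and 1124 (15.2%) lower with decitabine in WT cells, against 17.7% and 8.04% of all probes and 15.3% and 9.34% of CpG-free probes. The group had a median of 2 CpG in 500 bp. CpG-free probes of 35 to 40% GC had 9.52% higher and 12.1% lower. Those with 1 to 2 CpG in 500 bp had 9.37% and 11.9%. Most probes of the group were not bright, and the parts of GC content and signal level were not tested. Genes of the DNA methylation machinery had 128 probes with a median GC content of 42.6%, of which 17.2% and 19.5% were bright on the KO and WT decitabine arrays and 7.03% and 5.47% on the KO and WT untreated arrays. Germline genes that methylation keeps silent in somatic cells had 138 probes, bright at 18.1% and 17.4% on the KO and WT decitabine arrays and at 5.80% and 5.07% on the KO and WT untreated arrays. With decitabine in WT cells, 30 probes of the DNA methylation group (23.4%) were at least 2-fold higher and 12 (9.38%) lower. Of the germline probes, 28 (20.3%) were higher and 13 (9.42%) lower. The lower shares were close to those over all CpG-free probes. A high share was not particular to these groups, since 51 of 232 lymphoid marker probes (22.0%) were higher and 14 (6.03%) lower. In KO cells the DNA methylation, germline and lymphoid groups had 19.5%, 18.8% and 11.2% higher and 6.25%, 12.3% and 7.33% lower. CpG-free probes had 14.3% and 10.6% there.

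The other 6 groups had bright shares between 9.62% and 14.7% on the KO decitabine array. Probes of lymphoid marker genes (232) were bright at 14.7% and 15.9% on the KO and WT decitabine arrays and at 4.31% and 4.74% on the KO and WT untreated arrays, and those of myeloid marker genes (230) at 13.9%, 11.7%, 3.91% and 3.04%. Probes of HOXA genes and their cofactors (159) were bright at 10.7%, 12.6%, 1.89% and 2.52%, and those of housekeeping genes (114) at 12.3%, 11.4%, 2.63% and 2.63%. Secreted and barrier protein families (624) were at 10.1%, 8.49%, 3.21% and 3.53%, and erythroid and megakaryocyte markers (104) at 9.62%, 9.62%, 1.92% and 2.88%. These shares are counts of probes on 1 array each, set beside 14.3%, 12.9%, 3.77% and 4.08% over all CpG-free probes, and no group was tested.

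Within the groups, Dnmt3l, a cofactor of the de novo DNA methyltransferases, had 7 and 8 of 17 CpG-free probes bright on the KO and WT decitabine arrays and 2 and 1 on the KO and WT untreated arrays. Its probes averaged 0.78 ± 0.96 and 0.36 ± 0.73 on the KO and WT decitabine arrays and 0.05 ± 1.07 and -0.91 ± 0.99 on the KO and WT untreated arrays (log2, SD over 17 probes of 1 locus). Cd4, a coreceptor of T cells, had 7 and 8 of 22 probes bright on the KO and WT decitabine arrays and 2 and 1 on the KO and WT untreated arrays. Zap70, a kinase of T cell receptor signalling, had 0 of 20 bright on any array, and Meis1, a HOX cofactor, 0 of 15. Hoxa3, with 25 probes the most of the HOXA genes, had 2 and 2 bright on the KO and WT decitabine arrays and 0 and 1 on the KO and WT untreated arrays. Mpo, encoding the myeloperoxidase of neutrophil granules, had 2 and 2 of 21 bright on the KO and WT decitabine arrays and 1 and 1 on the KO and WT untreated arrays.

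By position relative to genes, bright shares spanned a narrower range than by GC content. Exonic, intronic and intergenic CpG-free probes were bright at 14.8%, 15.0% and 13.5% on the KO decitabine array and at 14.4%, 13.4% and 11.9% on the WT decitabine array. On the KO untreated array the shares were 3.84%, 3.81% and 3.70%, and on the WT untreated array 3.88%, 4.22% and 4.01%. Within 500 bp of a transcript start, 13.8% and 13.6% of 26531 probes were bright on the KO and WT decitabine arrays and 3.67% and 3.69% on the KO and WT untreated arrays. Over 5000 bp from a start, 14.7% and 13.6% of 9062 probes were bright on the KO and WT decitabine arrays and 4.09% and 4.19% on the KO and WT untreated arrays.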

How the data were processed

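MeDIP and input DNA were hybridised to 4 two-colour Agilent arrays. The authors deposited scanner output. Its extraction software was Agilent Feature Extraction 10.5.1.1 per the file headers, given as 10.5 in the submitters' processing notes. Its intensity values, per the file headers, are background-subtracted and dye-normalized, with surrogates for signals near background. The deposited log10 ratio (Cy5 over Cy3) served as an alternative, its sign turned. Other deposited columns used were the scanner's flags. The series value table was not used, and 0 columns of other samples were met.

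From these, log2 of MeDIP over input was averaged over the spots of a probe and centred on the median of the 316503 kept probes. Control probes and probes marked non-uniform were left out, and 1 CpG-free probe was saturated on some array. CpG counts and sequences were checked on mm9, and annotation came from GENCODE vM1. Differences within arrays were tested with an exact two-sided sign-flip permutation test over 4 arrays. Where a ratio was tested, its denominator was the input signal that chose the probes. This code was tested on simulated data with known differences. Differences between 2 arrays have no test, and 2-fold (a log2 difference of 1) was the limit. The number of arrays limits the precision. Alternatives were the input filter, normexp (offset 50), loess, the deposited ratio, another centring, bright probes only, other limits and leaving out each array. Gene names come from the array annotation and some are outdated.

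Named probes were the 6 highest and 4 lowest mean ratios among those bright on all arrays, the 3 largest differences each way per comparison among those bright on both arrays, the lowest and highest GC content, the 8 genes with most probes bright on all arrays, and the 2 genes with most probes in each list (of which the text describes some). Some named probes are not reported here. The probes, lists and tests were chosen with earlier results of these data known. Python 3.11.15, numpy 2.4.6, pandas 2.3.3, scipy 1.17.1, matplotlib 3.10.9, R 4.3.3 and limma 3.58.1 were used.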

Additional observations from a re-analysis of the deposited data

Results flagged for a closer look

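CpG-free probes outside the input rule had a bright share above that of the negative control spots on 3 arrays: 0.953% of 101010 such probes were bright on KO decitabine, and 0.154% on KO untreated and 0.429% on WT untreated. The exact (Clopper-Pearson) 95% intervals of the control shares, which cover counting error only, were 0.437% to 1.16% on KO decitabine, 0.00104% to 0.228% on KO untreated and 0 to 0.151% on WT untreated, so the difference lay outside the interval on WT untreated and within it on the other two. On WT decitabine 0.418% were bright, below its negative controls. On chromosome X, which the rule leaves out, 11.3% and 9.79% of 6424 CpG-free probes with input well above background were bright on the KO and WT decitabine arrays, and 2.43% and 3.21% on the KO and WT untreated arrays.

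In 8 named probes bright on all 4 arrays the difference with decitabine had opposite signs in KO and WT cells, with 1 array on each side, and the contrast between genotypes was not tested. The log2 difference was 0.28 in KO and -0.37 in WT for Olfr1288, 0.38 and -0.13 for 9930104L06Rik, 0.73 and -1.59 for Scg2, and 0.077 and -0.47 for Ccdc66. It was 0.31 in KO and -2.35 in WT for Phkb, 0.094 and -1.85 for Cdk5r2, 0.088 and -1.98 for Sp1, and 0.14 and -1.66 for Thg1l. All 8 were named for an extreme ratio or difference, and the WT untreated MeDIP signal was the highest of the 4 arrays in each. Among named probes that were not bright on every array, Cdc7 differed by 0.48 in KO and -2.14 in WT, and Sds by -1.03 in KO and 3.55 in WT, with its MeDIP signal lowest on the WT untreated array.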

How the results depend on the processing

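Of the values recomputed, 98 under planned settings and 36 under settings added after the data were seen kept their direction, some at a much changed size given beside the result, and counts and medians between 2 arrays of this kind stayed within 1.5-fold. Some of the 98 could not change and say nothing about robustness. Limiting the set to sequences that occur once on the array removed no CpG-free probe. Another centring cancels in differences within an array, and the fold limit does not enter a median. A further 53 under planned settings moved, and 10 under planned and 5 under added settings reversed. The cause was not tested. Weighted to the GC classes of CpG-free probes, the difference between CpG-free and CpG-containing probes reversed, to 0.13 points for the bright share and -0.10 for the ratio. Counting MeDIP signals marked positive and significant in place of well above background gave 4.34 points for that share and -0.18 points for the GC gradient of the share. Within input classes of 10% each they were 0.58 and -5.23 points. Within 35 to 40% GC the ratio at over 10 minus 0 CpG was 0.071, and for GA or CT repeats the ratio difference was -0.040. A repeat of at least 10 units gave no value, since the longest held 9. Leaving out 1 array at a time gave 0.18 to 0.29 for the ratio difference, -2.45 to -1.20 points for the share difference, 7.62 to 12.2 points and -1.19 to -0.78 for the GC gradient of share and ratio, 5.27 to 8.60 points and -0.44 to -0.21 for CpG around the probe, and 78.5 to 79.4 points and 0.51 to 0.84 for CA or TG repeats.

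Counts of probes past the limit moved most, given as higher and lower. For decitabine in KO cells they were 36018 and 32398 with no input filter, 7603 higher after normexp, 14974 higher after loess, 5387 and 71702 with centring on bright probes, 1913 and 15 among bright probes, 41414 and 45076 at 1.5-fold and 7767 and 2821 at 3-fold. For decitabine in WT cells they were 26170 lower with no input filter, 15179 and 6749 after normexp, 27278 lower after loess, 12991 and 40885 with centring on bright probes, 1215 and 201 among bright probes, 41348 and 38396 at 1.5-fold and 10213 and 3633 at 3-fold. For KO minus WT without treatment they were 23831 and 29585 with no input filter, 25837 lower after loess, 227 and 232 among bright probes, 30408 and 35618 at 1.5-fold and 3476 and 4741 at 3-fold. For KO minus WT under decitabine they were 23605 and 34363 with no input filter, 2944 and 7960 after normexp, 6839 and 29392 with centring on bright probes, 767 and 254 among bright probes, 28684 and 40485 at 1.5-fold and 2964 and 4381 at 3-fold. Medians reversed among bright probes for decitabine in KO (0.73) and in WT (0.28) and for KO minus WT under decitabine (0.21), after normexp for decitabine in WT (0.011), and for KO minus WT without treatment with no input filter (0.0029), after normexp (0.038) and with centring on bright probes (0.033). Medians kept their sign but moved by over 1.5 times for decitabine in WT with no input filter (-0.051) and with centring on bright probes (-0.53), for decitabine in KO after normexp (-0.029), with the deposited ratio (-0.0057) and with centring on bright probes (-0.86), for KO minus WT without treatment with the deposited ratio (-0.11) and after loess (-0.042), and for KO minus WT under decitabine with centring on bright probes (-0.33). No paired analysis was possible because each group has 1 array. A MeDIP signal near background limits every ratio of a probe that is not bright.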

Other observations

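The values below were looked for after the data had been seen and have no test. Runs of 1 base differed by base. Of 65 CpG-free probes with at least 8 C in a row, 90.8% and 89.2% were bright on the KO and WT decitabine arrays and 73.8% and 58.5% on the KO and WT untreated arrays, and 38 were bright on all 4. Of these 38, 97.4% were at least 2-fold higher with decitabine in KO and 97.4% in WT cells, against 29.8% and 26.7% of the other probes bright on all arrays. Runs of at least 8 G, T or A left 18.8% of 80 probes, 3.48% of 1523 and 3.00% of 1299 bright on all arrays. Among those, 86.7% of 15 G-run, 49.1% of 53 T-run and 35.9% of 39 A-run probes were at least 2-fold higher with decitabine in KO. In WT cells these shares were 20%, 32.1% and 33.3%. Median input of C-run probes was 13085, 16933, 16490 and 18067 units on KO decitabine, WT decitabine, KO untreated and WT untreated. Probes without a C run had 510, 418, 416 and 546 units in that order, and the part of input was not tested.

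The last 4 bases of 60-base CpG-free probes went with the ratio. Of 206 such probes ending in GAGC, 30 (14.6%) were bright on all 4 arrays with a mean centred ratio of at least 2, against 174 of 61159 (0.285%) with another ending. Over CpG-free probes of any length the share was 5.69% of 527 for GAGC, which ranked first of the 209 endings compared there. Probes of 60 bases ending in GAGC were bright at 73.8% and 71.4% on the KO and WT decitabine arrays and at 22.8% and 63.1% on the KO and WT untreated arrays, at median inputs of 432 and 265 units and of 341 and 353 units. None of 321 shorter probes ending in GAGC passed both limits. The ending was not particular to CpG-free probes. Of 674 CpG-containing probes ending in GAGC, 20 (2.97%) passed both limits, against 455 of 152201 (0.299%) with another ending.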
